A study of Homo sapiens with 6 samples.

Results

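The 7 genes GEM, RRAD, RHOB, RND1, RND3, RGS2 and RGS4 encode small GTPases and RGS proteins that many cell types switch on after a stimulus. They were followed in the breast cancer cell line Hs578T, an established human line, which here carried a HOXA5 gene that can be induced. Members were taken by symbol from the platform's probe table, which gave 10 probe sets for the 7 genes among 22283 on the array: 3 for RGS4, 2 for RRAD and 1 for each of the others. Of these, 7 probe sets for 6 genes passed the filter on low values, and neither of RRAD did. The genes had been chosen on their levels over time in these same arrays, so their values at 6 h and 9 h against 0 h are a description and carry no test. As the label inducible says, GEM, RHOB, RND3 and RGS2 were higher at both induced times in both experiments, but RND1 and RGS4 were not. RRAD, which failed the filter, could not be judged.

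RNA was taken at 0 h (uninduced cells), 6 h and 9 h (cells induced for that time), in each of 2 experiments, so that every group held 2 arrays. HOXA5 is a homeobox transcription factor, and its target genes are the question named by the title of the series. Cells were seeded 24 h ahead of induction, and all groups carried the inducible gene. The probe table used here names 0 probe sets for HOXA5, whose own level was therefore not analysed here. The inducing agent, its dose and whether the line is 1 clone are not given in the sources used here, and 0 arrays of uninduced cells at 6 h or 9 h were among those used, so that induction, its agent and time in culture cannot be told apart. The 6 h array of experiment 2 is titled as such, but its description carries the lot line of experiment 1; the title was followed here.

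GEM and RRAD belong to the RGK branch of the Ras superfamily. RGK proteins bind the beta subunits of voltage-gated calcium channels and lower calcium entry. RHOB is a short-lived, endosomal relative of RHOA that is often switched on as an immediate-early gene, while RND1 and RND3 are small GTPases that hardly hydrolyse GTP and oppose RHOA, so that stress fibres dissolve. RGS2 and RGS4 speed up GTP hydrolysis by G protein alpha subunits, RGS2 mainly on the Gq class and RGS4 on the Gi and Gq classes, and so end signals from receptors.

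The arrays differed in brightness, with deposited medians from 18.7 intensity units in the 6 h array of experiment 1 to 95.7 in the 0 h array of experiment 1, and were quantile normalised. Without scaling, the 10437 tested genes had a median log2 change of -1.37 for 6 h and of -0.58 for 9 h, and every change below is relative to the whole array. All 10 mesenchymal markers, among them VIM, FN1 and SPARC, lay above the floor of 12.7 normalised units on all 6 arrays, as did 4 of 9 luminal epithelial, 1 of 5 leukocyte and 1 of 5 endothelial markers on the array. Those above it on all 6 were the epithelial genes GATA3 (log2 6.83 to 7.59), FOXA1, ESR1 and ERBB3, the leukocyte gene CD3E and the endothelial gene PECAM1. The epithelial genes EPCAM, KRT19 and CLDN4, the leukocyte gene LYZ and the endothelial gene CDH5 lay below the floor on all 6. The summed intensity of the epithelial list was 282 to 298 at 0 h, 249.9 to 361 at 6 h and 331 to 352 at 9 h, that of the leukocyte list 80.3 to 122, 118 to 141 and 85.3 to 95.2, that of the endothelial list 95.3 to 95.8, 90.5 to 98.0 and 90.5 to 97.9, and that of the mesenchymal list 15580.5 to 15624, 14192 to 14439 and 13670.8 to 14198 at the same times. In these sums each gene below the floor counted as 12.7 units, so the leukocyte and endothelial sums hold a constant part set by the floor. The part of these markers in the results was not tested.

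GEM was higher at both induced times in both experiments. Its normalised intensity was 143 at 0 h, 449 at 6 h and 760 at 9 h in experiment 1, and 598 at 0 h, 1788 at 6 h and 2310.3 at 9 h in experiment 2. Within each experiment the level climbed at each time, whereas between experiments the groups overlapped, since the 0 h array of experiment 2 read higher than the 6 h array of experiment 1. The log2 change was 1.61 ± 0.89 at 6 h and 2.18 ± 0.89 at 9 h against 0 h (standard error, n = 2 arrays per group), or 3.06-fold and 4.53-fold. Within experiments 1 and 2 the log2 change at 6 h was 1.65 and 1.58, and at 9 h 2.41 and 1.95. In RNA of a whole culture, more cells with a transcript and more transcript per cell cannot be told apart. Fitting the experiment too, the standard error of GEM was 0.21.

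The estimate for GEM depended on which 0 h array was used, because these 2 arrays differed by 2.06 on the log2 scale. Leaving out the uninduced array of experiment 1 gave log2 changes of 0.58 at 6 h and 1.15 at 9 h, and leaving out that of experiment 2 gave 2.64 and 3.21. Leaving out the dimmest array, that of 6 h in experiment 1, gave 2.61 at 6 h, and the lot line as the block gave 2.53. In unscaled values it was -0.04 at 6 h, where all genes shifted by -1.37, and 1.54 at 9 h. Among the 10437 tested genes, 0.517% had a change as high as that of GEM or higher at 6 h, and 0.220% at 9 h. The 9 h level was above the 6 h level by 0.76 and 0.37 in the experiments, a log2 change of 0.57 ± 0.89. That direction turned to -0.35 with the lot line as the block, to -0.43 without the 6 h array of experiment 1 and to -0.24 without the 9 h array of experiment 2.

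RRAD, the other RGK member, lay below the floor on 5 of the 6 arrays with its probe set 204802_at. It read 17.3 normalised units in the 6 h array of experiment 1. The second probe set, 204803_s_at, was below the floor on all 6 arrays. Values below the floor have no order, so no fold is given for RRAD.

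**Figure D1:**
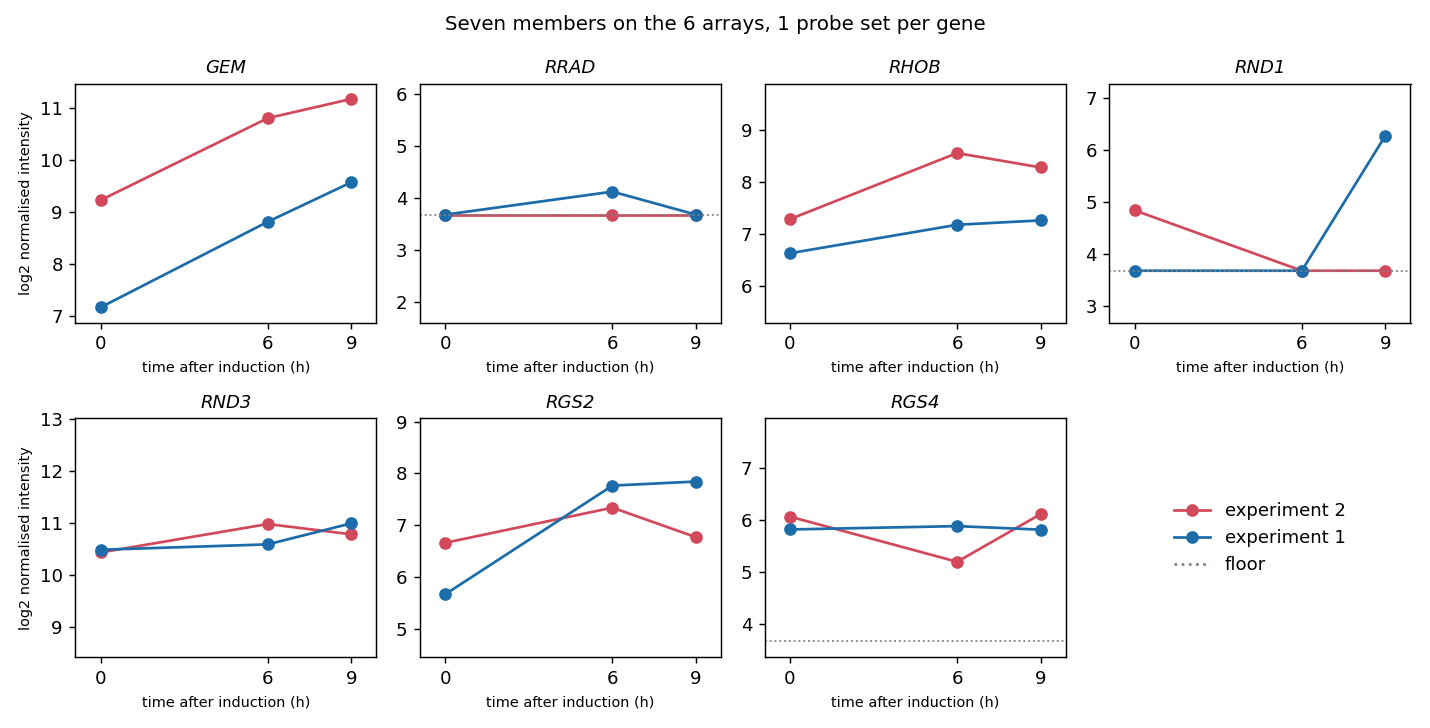
Log2 normalised intensity of the 7 members (vertical axis, 1 probe set per gene, each panel spanning the same range) against time after induction in hours, with 1 line per experiment and the floor at 3.67 dotted. GEM and RHOB keep experiment 2 above experiment 1 at all 3 times, RGS2 crosses between experiments, and RRAD and RND1 lie mostly at the floor.

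RHOB, the endosomal GTPase, read 99.25 at 0 h, 145 at 6 h and 154 at 9 h in experiment 1, and 156 at 0 h, 378 at 6 h and 312 at 9 h in experiment 2. Both experiments were higher at both induced times, and the groups overlapped because the 0 h array of experiment 2 read above both induced arrays of experiment 1. The log2 change was 0.91 ± 0.56 at 6 h and 0.81 ± 0.56 at 9 h, or 1.88-fold and 1.76-fold. It was 0.55 and 1.27 within the experiments at 6 h, and 0.63 and 0.99 at 9 h. Without the 6 h array of experiment 2 the change at 6 h was 0.22, and without that of experiment 1 it was 1.60; at 9 h the same ranged from 0.30 to 1.32. In unscaled values RHOB had -0.66 at 6 h and 0.24 at 9 h.

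RND3, which loosens stress fibres, was bright throughout. In experiment 1 it read 1433 at 0 h, 1539.8 at 6 h and 2039 at 9 h, and in experiment 2 it read 1382, 2019.9 and 1760.4. All 4 induced arrays stood above both uninduced ones, by a small margin: the log2 change was 0.33 ± 0.23 at 6 h and 0.43 ± 0.23 at 9 h, or 1.25-fold and 1.35-fold. Of all tested genes, 23.9% had a change as high or higher at 6 h and 20.5% at 9 h. In unscaled values RND3 had -1.28 at 6 h and -0.21 at 9 h.

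RND1, which works with plexin receptors in nerve cells, was above the floor on 2 arrays only, with 77.2 units in the 9 h array of experiment 1 and 28.5 in the 0 h array of experiment 2. The other 4 arrays were below the floor. The experiments therefore ran in opposite directions at 9 h, with log2 changes of 2.60 and -1.16 against the floor. Their mean of 0.72 ± 0.82 turned to -0.58 without the 9 h array of experiment 1, and at 6 h the value was -0.58 ± 0.82.

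RGS2 read 51.1 at 0 h, 218 at 6 h and 229.9 at 9 h in experiment 1, and 102 at 0 h, 162 at 6 h and 109 at 9 h in experiment 2. All 4 induced arrays were above both 0 h arrays, although the 9 h array of experiment 2 was so by little. The log2 change was 1.38 ± 0.51 at 6 h and 1.14 ± 0.51 at 9 h, or 2.61-fold and 2.20-fold. Experiment 1 gave 2.09 at 6 h and 2.17 at 9 h, and experiment 2 gave 0.68 and 0.11. Leaving out the 9 h array of experiment 1 put the 9 h value at 0.60, and leaving out that of experiment 2 put it at 1.67. At 6 h the value was 1.17 without the dimmest array. In unscaled values RGS2 had -0.13 at 6 h and 0.62 at 9 h. Of all tested genes, 1.10% had a change as high or higher at 6 h and 3.44% at 9 h.

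RGS4, a short-lived RGS protein, had a probe set, 204337_at, above the floor on all 6 arrays. In experiment 1 it read 56.6 at 0 h, 59.1 at 6 h and 56.4 at 9 h, and in experiment 2 it read 67.1, 36.8 and 69.5. Apart from the lower 6 h array of experiment 2 these values lay close together, with log2 changes of -0.40 ± 0.45 at 6 h and 0.02 ± 0.45 at 9 h. A second probe set, 204339_s_at, gave 0.93 and -0.99 within the experiments at 6 h, and 1.26 and -1.01 at 9 h, so that the experiments lay on opposite sides of 0. The third, 204338_s_at, lay below the floor on all 6 arrays.

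**Figure D2:**
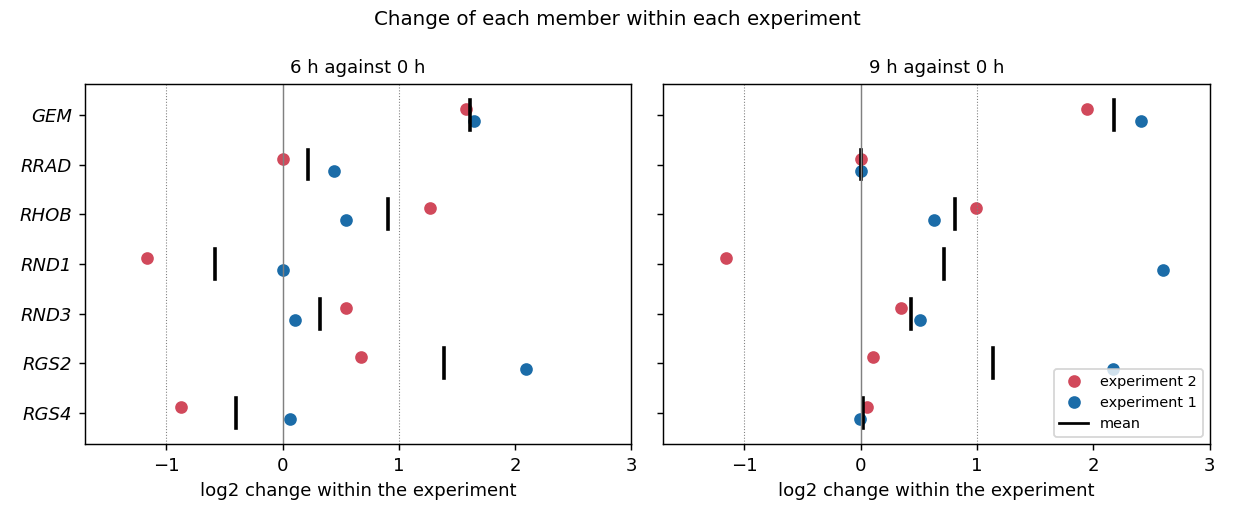
Log2 change of each member (rows) within experiment 2 and experiment 1 (points) and their mean (black bar), at 6 h (left) and 9 h (right) against 0 h, with dotted lines at 2-fold. GEM lies beyond 2-fold in both experiments at both times, while RGS2 does so in experiment 1 only and RND1 lies on opposite sides of 0 at 9 h.

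Over the 7 genes, the median log2 change was 0.33 at 6 h and 0.72 at 9 h, beside 0.01 and -0.02 over all tested genes, with RRAD taken at the floor where it lay below it. The 9 h median is the value of RND1, which lay mostly at the floor and ran in opposite directions in the experiments. Within experiments 1 and 2 the median was 0.44 and 0.55 at 6 h, and 0.63 and 0.11 at 9 h. Both comparisons share the 0 h arrays. At 6 h 4 of the 7 tested member probe sets were higher in both experiments and 0 were lower, where the background over 18360 probe sets was 25.3% higher and 25.8% lower. At 9 h the counts were 4 and 0, against a background of 26.9% and 28.9%. At least 2-fold higher in both experiments was 1 member, GEM, at 6 h (background 1.24%) and again at 9 h (background 2.14%). Both induced arrays stood above both 0 h arrays for 2 members at 6 h (RND3 and RGS2, background 16.1%) and for 3 at 9 h (GEM, RND3 and RGS2, background 18.3%). Since these contrasts chose the members, the counts are given without a reading.

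The unpaired limma fit called 0 probe sets at 6 h and 0 at 9 h among 18360 (0%), with 875 (4.77%) and 1360 (7.41%) at an unadjusted p under 0.05. The paired fit called 0 at 6 h (0%) and 66 at 9 h (0.359%), of which 1 was a member probe set, that of GEM. GEM had been chosen with this contrast known, so its call carries no test. Pairing the arrays by the lot line gave 0 calls at 9 h, so the 66 calls and that of GEM rest on the title of 1 array. Comparing 9 h with 6 h, both fits called 0 probe sets (0%), and 968 (5.27%) had an unadjusted p under 0.05 in the unpaired one. GEM alone was higher in both experiments (background 27.1%), and the median log2 change of the 7 genes was 0.10.

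**Figure D3:**
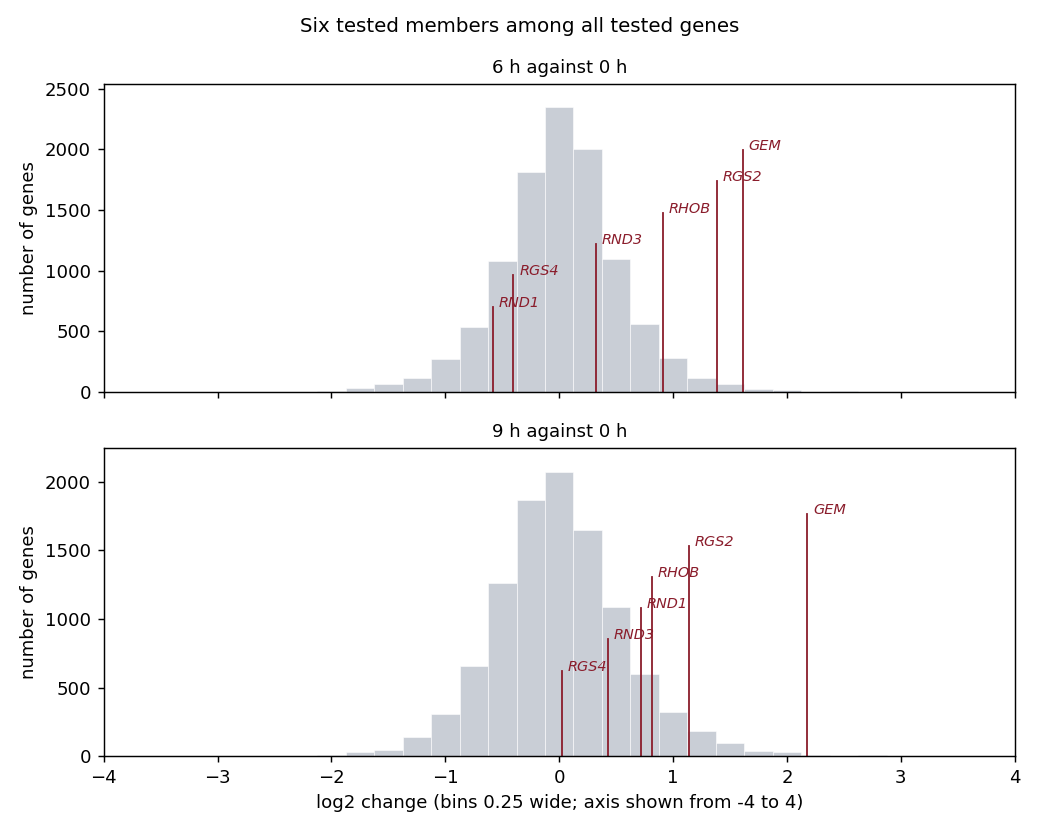
Number of tested genes (vertical axis) by log2 change in bins of 0.25 (horizontal axis), at 6 h (top) and 9 h (bottom) against 0 h, with the 6 tested members as labelled lines whose heights carry no value. GEM and RGS2 stand in the upper tail at both times, RHOB and RND3 lie to the right of the centre, and RGS4 lies to its left at 6 h and near it at 9 h.

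The experiments differed in level for some members, a pattern seen in the values and given as a description with no test. GEM was 3.70-fold higher in experiment 2 than in experiment 1, with a log2 difference of 1.89 ± 0.17 (standard error, 3 arrays per experiment, time as a term). Here and for RHOB below, the standard error reflects how steady the difference was over the 3 times. It does not measure the spread between experiments, since each side was 1 experiment. The difference was 2.06 at 0 h, 1.99 at 6 h and 1.60 at 9 h, so it stood in the uninduced cells as well. It ran from 1.80 to 2.03 with 1 array left out and was 1.69 in unscaled values. RHOB was 2.03-fold higher in experiment 2, a log2 difference of 1.02 ± 0.23, by 0.66, 1.38 and 1.02 at 0, 6 and 9 h. The median difference over all tested genes was 0.05. RND1, RND3, RGS2 and RGS4 had log2 differences of -0.48, 0.04, -0.17 and -0.05, each of which lay on either side of 0 depending on the array left out. For RGS2 the order of the experiments differed by time, with experiment 2 above experiment 1 by 0.99 at 0 h and below it at 6 h and 9 h (-0.42 and -1.07).

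The sequences around the start of RHOB, RND3, RGS2 and RGS4 are shown because the first 3 of these were higher in both experiments while RGS4 was not, and they give what each promoter holds. They are RefSeq sequences of build GRCh38.p14 in the direction of the gene, from 250 bases before to 50 after its annotated start, at chr2:20446824-20447123 (+ strand), chr2:150487646-150487945 (- strand), chr1:192808789-192809088 (+ strand) and chr1:163068621-163068920 (+ strand). Windows matched by symbol were used for 4 of the 7 members. GEM was left out beforehand because of its chromosome, whatever windows it had, and RRAD and RND1 had none. RGS4 and RND3 had several starts, of which the window at the outer end of the gene is shown. Capitals mark matches, on either strand, to TGACG (the core of the cAMP response element), TGANTCA (AP-1), the CArG box of serum response factor, the CCAAT box, the TATA box (TATAAA) and the homeodomain core TAAT.
RHOB: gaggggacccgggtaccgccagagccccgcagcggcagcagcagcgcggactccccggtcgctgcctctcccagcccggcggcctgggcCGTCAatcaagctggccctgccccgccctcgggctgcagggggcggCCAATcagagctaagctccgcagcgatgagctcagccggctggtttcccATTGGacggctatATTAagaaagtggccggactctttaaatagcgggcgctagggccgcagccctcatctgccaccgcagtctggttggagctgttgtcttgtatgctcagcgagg
RND3: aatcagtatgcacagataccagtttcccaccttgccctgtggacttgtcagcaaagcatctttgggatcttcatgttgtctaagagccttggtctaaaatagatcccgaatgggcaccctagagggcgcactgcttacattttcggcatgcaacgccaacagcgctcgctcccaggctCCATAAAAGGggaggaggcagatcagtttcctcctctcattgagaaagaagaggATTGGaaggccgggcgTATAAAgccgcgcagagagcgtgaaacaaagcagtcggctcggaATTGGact
RGS2: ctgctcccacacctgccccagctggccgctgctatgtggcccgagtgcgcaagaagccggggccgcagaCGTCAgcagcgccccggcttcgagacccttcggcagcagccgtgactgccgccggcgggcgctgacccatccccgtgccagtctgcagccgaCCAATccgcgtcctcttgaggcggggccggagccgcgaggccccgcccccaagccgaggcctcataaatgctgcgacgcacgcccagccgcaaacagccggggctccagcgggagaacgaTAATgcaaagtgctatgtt
RGS4: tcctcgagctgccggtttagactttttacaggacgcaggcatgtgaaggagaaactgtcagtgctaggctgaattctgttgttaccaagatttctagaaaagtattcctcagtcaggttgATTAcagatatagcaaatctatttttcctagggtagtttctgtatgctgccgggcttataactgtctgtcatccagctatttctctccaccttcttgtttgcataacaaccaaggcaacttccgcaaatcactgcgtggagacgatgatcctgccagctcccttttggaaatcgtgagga

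The RND3 window held a CArG box from -72 to -63, counted from the start, and 1.29% of the 35116 promoter windows of this length held such a box. It also held TATAAA (11.5% of windows) across the start, and CCAAT on the reverse strand at 2 places. RHOB had TGACG on the reverse strand from -161 to -157, CCAAT in each direction (from -115 to -111 and from -66 to -62) and TAAT on the reverse strand. RGS2 had TGACG on the reverse strand from -181 to -177, CCAAT from -89 to -85 and TAAT from 32 to 35 after the start. RGS4 had TAAT alone, on the reverse strand from -130 to -127. TGACG was found in 24.6% of all windows, CCAAT in 34.6% and TAAT in 50.2%, while TGANTCA (7.71%) and the full element TGACGTCA (1.85%) were in 0 of the 4 windows shown. TGACGTCA contains TGACG. Matches are letters in a window and were not measured as binding.

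Genes that work with these proteins were taken as 4 lists chosen with earlier results of these data known, with 73 tested genes in all. In limma 0 passed in each of the 3 comparisons, paired or unpaired, and at 6 h, 9 h and 9 h against 6 h 3, 3 and 4 had an unadjusted p under 0.05 when unpaired. That is 4.11%, 4.11% and 5.48% of the list genes, where 4.77%, 7.41% and 5.27% of all probe sets did. The genes named below had limma adjusted p from 0.577 to 0.926 at 9 h, and from 0.130 to 0.807 in the paired fit. Their changes at 9 h are given as values.

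Among 10 tested genes of the RGS family other than RGS2 and RGS4, 1 was higher and 3 lower in both experiments at 9 h. The shares over all tested genes were 28.0% and 29.5%. The median log2 change of these 10 was -0.11 (-0.02 over all tested genes). RGS14, which also binds Ras and Rap proteins, had a log2 change of -1.51 ± 0.42 at 9 h, with -1.57 and -1.46 in the experiments and 2 of its 3 probe sets of that sign. It was at the floor in the 9 h array of experiment 1 and close to it in that of experiment 2, at 3.68 in log2 against 3.67. With the floor at the 40th percentile its change was -0.24. RGS17, an RGS protein of the RZ subfamily, had 0.98 ± 0.51 (0.55 to 1.41 with 1 array left out), RGS12 -0.68 with 2 of 6 probe sets of that sign, and RGS19 -0.66.

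Of 17 other GTPases of the Ras branch 4 were higher and 7 lower in both experiments at 9 h, with a median of -0.05. Over all tested genes the shares were 28.0% and 29.5%. RASL10A had 1.21 ± 0.66 at 9 h and 1.50 at 6 h, where it was at least 2-fold higher in both experiments. The 9 h value ran from 0.51 without the 9 h array of experiment 2 to 1.92 without that of experiment 1, and was 0.66 with the floor at the 40th percentile. The RGK relative REM1 had -0.93 with the 9 h array of experiment 2 at the floor, from -1.50 without the 0 h array of experiment 2 to -0.36 without that of experiment 1, and -0.18 with the higher floor. RRAS had -0.94, from -2.01 without the 9 h array of experiment 1 to 0.12 without that of experiment 2, and RAP2A -0.77, from -1.17 to -0.37 without the same arrays, with 1 of 2 probe sets of that sign.

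Among 34 tested G protein subunits and effectors the median at 9 h was -0.22 (log2), 7 being higher and 18 lower in both experiments, where the shares over all tested genes were 28.0% and 29.5%. GNA14, an alpha subunit of the Gq class, lay at the floor on each uninduced array and was at least 2.01-fold higher at 6 h, and at least 2.15-fold at 9 h. The gamma subunit GNG11 had -1.07 ± 0.79, with -1.02 and -1.13 in the experiments but -0.38 on dropping experiment 2 at 9 h and -1.77 on dropping experiment 1 there. GNB5, a beta subunit that pairs with RGS proteins of the R7 subfamily, had -1.02 ± 0.39, with all 3 of its probe sets of that sign. The phospholipase PLCB3, a Gq effector, had -0.93 (-0.62 without the 9 h array of experiment 2).

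Of 12 tested calcium channel subunits and other partners of GEM and RRAD, 2 were higher and 2 lower in both experiments at 9 h. Their median was 0.08, and the shares over all tested genes were 28.0% and 29.5%. CACNA2D3 had 1.16 ± 0.50, with 1 of its arrays at 0 h and 1 at 6 h at the floor, and 0.22 with the floor at the 40th percentile. CACNA1A had -0.57, from -0.77 without the 0 h array of experiment 1 to -0.36 without that of experiment 2, and CACNA1D 0.40, from 0.11 to 0.69 without the same arrays and -0.22 in unscaled values. CACNA2D2 had -0.52 with the 9 h array of experiment 1 at the floor, and -0.01 without that array.

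**Figure D4:**
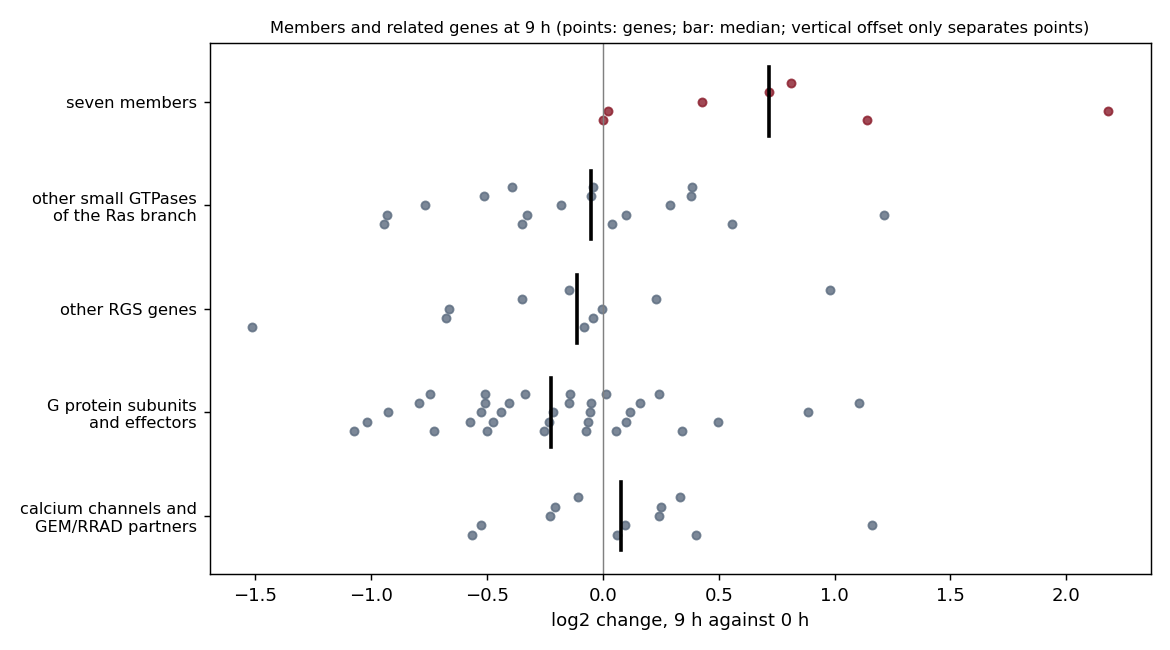
Log2 change at 9 h against 0 h (horizontal axis) for the 7 members and the tested genes of 4 related lists (rows, 1 point per gene, bar at the median). The medians of the lists lie between -0.22 and 0.08 and that of the members, which were chosen with this contrast known, at 0.72, the value of RND1.

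Genes with the pattern most like each member were sought by Pearson's r of the log2 values over the 6 arrays, among 8055 genes above the floor on all arrays. These values share arrays, scaling and the experiment difference, so they are a description. GEM ran closest to NAXD, a repair enzyme of damaged NAD(P)H (r = 0.998), and to the mRNA decapping factor DCP1A (0.994), which had log2 changes of 0.74 and 0.77 at 9 h. RHOB ran closest to ABR and to the F-box protein FBXO46 (r = 0.994 and 0.993). For RND3 they were the deubiquitinase OTUD3 and the ribosomal protein RPS6 (0.979 and 0.977), and for RGS2 TMEM51 and MOCOS, the molybdenum cofactor sulfurase (0.988 and 0.977), with 0.85 and 1.11 at 6 h. RGS4 ran closest to the carbonic anhydrase CA14 and to BCAS4 (0.986 and 0.981).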

How the data were processed

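Total RNA of 6 samples was hybridised to Affymetrix chips, per the labels. The authors deposited 1 linear intensity per probe set and array, made with software not given in the sources used here. Gene symbols came from the platform's table (20114 listed, 19071 with 1 symbol, 1043 with several), with symbols updated through Entrez numbers. The members and lists were chosen with earlier results of these data known, and 2 further gene lists are not reported here.

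Quantile normalisation was followed by a floor at the 25th percentile (12.7 units, or 3.67 in log2) and the log2 transform. After leaving out 68 controls, 18360 probe sets with at least 2 of 6 arrays above the floor were tested in limma 3.58.1 (R 4.3.3; lmFit, then eBayes allowing for an intensity trend; 3 residual degrees of freedom), using Benjamini-Hochberg adjustment over all of them and a threshold of 0.05, two-sided. The probe set with the highest mean stood for a gene. Standard errors (±) come from this fit, whose p-values measure only the spread between these arrays; 2 arrays per group limit the precision.

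Apart from the 6 h array of experiment 2, the labels give each experiment its own batch of RNA, which pairs the arrays. They do not say whether cultures were separate. Within an experiment, deviations from group means correlated by 0.247 between 0 h and 6 h, by 0.336 between 0 h and 9 h, and by 0.391 between the induced times. The fit without the experiment was the main design and the paired fit an alternative. The 6 h array of experiment 2 has a lot line naming experiment 1; its title was followed and the lot line run as another block. Correlations between arrays were 0.890 to 0.948, so no array repeats another.

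Named genes were the members, the 4 genes per related list with the highest absolute change at 9 h plus any past the threshold, the 2 genes most correlated with each member that was above the floor on all arrays, and marker genes. Alternatives were other scaling, floors, filters, blocks, no intensity trend, all probe sets averaged, and each array left out.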

Additional observations from a re-analysis of the deposited data

How the results depend on the processing

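With the experiment as a term (replicate block), 66 probe sets passed at 9 h against 0 h where 0 did without it. The calls at 6 h against 0 h and at 9 h against 6 h stayed at 0. Medians and counts by fold cannot differ under this term, since every group holds both experiments. With the lot line as the block, 0 probe sets passed at 9 h against 0 h, and the members' median at 9 h against 6 h was -0.22. In unscaled values their median was -0.66 at 6 h, 0.24 at 9 h and 1.08 at 9 h against 6 h, with 0 members at least 2-fold higher in both experiments at 6 h. CACNA1D turned to -0.22 at 9 h, and RND3 between the experiments to -0.23. With arrays scaled to 1 trimmed mean, RND3 and RGS4 turned to -0.11 and 0.061 between the experiments. With the floor at the 10th percentile the median was 0.91 at 6 h and 1.14 at 9 h, and 2 members, GEM and RRAD, were at least 2-fold higher in both experiments at either time, since RRAD then lay less often at the floor. Adding 16 units in place of a floor gave a median of 0.69 at 6 h. Without the filter 24, 12 and 18 probe sets passed at 6 h, at 9 h and at 9 h against 6 h; the cause was not tested.

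Leaving out 1 array gave members' medians from 0.22 to 0.52 at 6 h, 0.32 to 1.14 at 9 h, and -0.033 to 0.30 at 9 h against 6 h. Between the experiments GEM then had 1.80 to 2.03, RND1 -1.30 to 0.58, RND3 -0.13 to 0.17, RGS2 -0.75 to 0.28 and RGS4 -0.22 to 0.27. At 9 h RRAS had -2.01 to 0.12. RRAD and RND1 lay so close to background that their values are set mostly by the floor. Counts that need both experiments have no value with 1 array left out. Over all settings, 102 counts and medians lay within the limits set for them and 22 moved beyond them. Of the values of single genes 663 kept direction and call or, where they had no test, stayed within the spread between arrays (some with a change of sign), 23 moved by more, and 2 turned. Many of these outcomes were fixed beforehand, so the tallies do not measure stability. The experiment as a block, the filters and the intensity trend cannot alter a log2 change. Rounding aside, leaving out 1 of a group's 2 arrays cannot take a member's change between times past that spread. GEM at 6 h counted as within it at 0.58 against 1.61.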
